A study of Homo sapiens with 3 samples.

Results

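Of the 16147 SBNO1 peaks called in HuCCT1 cells, 704 (4.36%) were shared with TAF4 and lay at divergent promoters, where 2 protein-coding genes on opposite strands start close to each other. These 704 members were chosen from the peak lists themselves: each overlapped a TAF4 peak by 1 bp or more and no IgG peak, and its edge lay within 1 kb of transcription start sites (TSS) of at least 2 different protein-coding genes on opposite strands (GENCODE 44). They made up 14.7% of the 4791 SBNO1 peaks that came within 1 kb of any protein-coding TSS, and they reached 1339 of 19689 protein-coding genes (6.80%). HuCCT1 (HUCCT1 in the labels) is a human cell line derived from cholangiocarcinoma, a cancer of the bile ducts. The cells carried no treatment or genetic change in the labels, and chromatin immunoprecipitation followed by sequencing (ChIP-seq) was done with antibodies to Strawberry Notch 1 (SBNO1) and to TAF4, a TATA-box binding protein associated factor, and with control IgG. Each of the 3 lists came from 1 library, into which the immunoprecipitates of several cultures had been pooled before sequencing, so no value below has a replicate and no p-value can be given. The lists held 16147 SBNO1, 12763 TAF4 and 1598 IgG peaks, without read numbers, so depth is unknown. Behind each share stands its exact 95% Clopper-Pearson interval, and behind medians stand exact 95% intervals over peaks, all of which cover counting error only.

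A divergent, or bidirectional, promoter is a short stretch of DNA from which a gene on the minus strand is read to the left and another on the plus strand is read to the right. Such promoters are common in the human genome, are mostly rich in CG dinucleotides and poor in TATA boxes, and often serve genes needed in every cell. TAF4 is a core subunit of TFIID, the general transcription factor that recognises core promoters and helps to place RNA polymerase II at the TSS, and SBNO1 is a nuclear protein with a helicase-like domain named after the fruit fly gene strawberry notch.

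The following 9 stretches between opposing TSS were chosen to show textbook gene pairs, the gene groups described below and the range of base composition. They are read from GRCh38, on the plus strand from left to right, so that the minus-strand gene (named first) starts just left of the first base and the plus-strand gene just right of the last. Capitals mark exact matches, on either strand, to any of the motifs searched, which are listed with their shares further below.
TPRA1/MCM2, chr3:127598268-127598409: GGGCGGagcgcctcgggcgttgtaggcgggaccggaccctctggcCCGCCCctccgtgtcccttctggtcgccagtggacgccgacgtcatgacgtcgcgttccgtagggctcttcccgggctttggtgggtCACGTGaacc
TK1/AFMID, chr17:78187234-78187357: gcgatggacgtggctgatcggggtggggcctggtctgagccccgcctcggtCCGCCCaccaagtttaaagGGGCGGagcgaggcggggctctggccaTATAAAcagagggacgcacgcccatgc
TMEM258/FEN1, chr11:61792803-61792910: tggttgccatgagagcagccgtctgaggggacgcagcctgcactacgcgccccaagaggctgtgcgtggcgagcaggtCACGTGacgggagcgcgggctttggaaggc
PPAT/PAICS, chr4:56435616-56435740: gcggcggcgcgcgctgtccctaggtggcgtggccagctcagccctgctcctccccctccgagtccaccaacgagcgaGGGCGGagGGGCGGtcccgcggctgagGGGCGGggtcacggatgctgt
MRPL47/NDUFB5, chr3:179604650-179604786: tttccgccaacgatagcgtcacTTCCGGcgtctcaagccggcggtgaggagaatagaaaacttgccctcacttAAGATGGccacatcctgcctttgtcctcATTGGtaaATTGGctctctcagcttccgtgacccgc
ATP5MK/PDCD11, chr10:103396493-103396625: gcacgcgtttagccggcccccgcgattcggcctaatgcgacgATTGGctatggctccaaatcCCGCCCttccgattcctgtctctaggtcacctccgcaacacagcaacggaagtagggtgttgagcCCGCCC
RPL18/SPHK2, chr19:48619182-48619290: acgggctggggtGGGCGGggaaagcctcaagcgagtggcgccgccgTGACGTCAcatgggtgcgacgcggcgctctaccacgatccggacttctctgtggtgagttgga
CBX5/HNRNPA1, chr12:54280123-54280192: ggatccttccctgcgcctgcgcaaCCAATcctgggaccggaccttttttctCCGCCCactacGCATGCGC
H2AC7/H2BC7, chr6:26199294-26199515: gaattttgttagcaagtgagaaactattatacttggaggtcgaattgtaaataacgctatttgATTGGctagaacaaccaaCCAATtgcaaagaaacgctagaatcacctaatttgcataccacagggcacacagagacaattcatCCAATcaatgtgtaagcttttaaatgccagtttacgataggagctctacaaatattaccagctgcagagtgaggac
In TPRA1/MCM2, 142 of the 143 bases between the TSS are shown, and in the other 8 the whole stretch is shown. CBX5/HNRNPA1 had the fewest bases of these, 70, with 1 CCAAT box. MRPL47/NDUFB5 was the one stretch with the ETS motif and had 2 CCAAT boxes. The histone pair H2AC7/H2BC7 stood apart in composition, with 38.3% GC against 54.0% to 76.0% in the other 8, and had 3 CCAAT boxes.

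Next, the arrangement of the gene pairs was described. Where several TSS of a gene were annotated, the opposing TSS of different genes that lay closest to each other within reach of the peak were taken as its pair. Of the members, 610 (86.6%) lay at pairs in head-to-head order, in which the transcripts lead away from each other, and 94 (13.4%) at pairs whose 5′ ends overlapped. The head-to-head TSS lay a median of 145 bp apart (95% interval 130 to 162 bp), with an interquartile range of 71 to 283 bp and extremes of 1 and 1645 bp. The members fell on 656 distinct gene pairs. Most of them reached 2 protein-coding genes (668 members), while 33 reached 3 and 3 reached 4. The members reaching 4 genes were the peak at BORCS8/RFXANK, which encodes a lysosome-positioning subunit and a factor of MHC class II transcription, and both peaks at the gene without a symbol ENSG00000285953 and ANKIB1, which encodes a ubiquitin ligase of the ring-between-ring type.

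The peaks were then placed relative to the TSS. SBNO1 peaks covered both closest opposing TSS in 452 of 704 members (64.2%, 60.5 to 67.8%), 1 of them in 136 and neither in 116. The TAF4 peaks covered both in 485 (68.9%, 65.3 to 72.3%), and the peaks of both proteins covered both TSS in 418 members (59.4%). The peak centres sat around the midpoint of the pair without leaning to a strand. The rule requires both TSS within 1 kb of the SBNO1 peak edge, which itself favours centres near the midpoint. In the 610 head-to-head members, the SBNO1 centre lay between the TSS in 318 (52.1%), on the side of the minus-strand gene in 152 and on that of the plus-strand gene in 140. For TAF4 the numbers were 310, 141 and 159. Both centres fell in the same place in 461 members (75.6%) and on the sides of different genes in 31 (5.08%). The distance of the centre from the midpoint had a median of 89.5 bp for SBNO1 and 91 bp for TAF4. The lists held no summits, so the centre of the called interval stands in for the point of strongest signal.

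**Figure D1:**
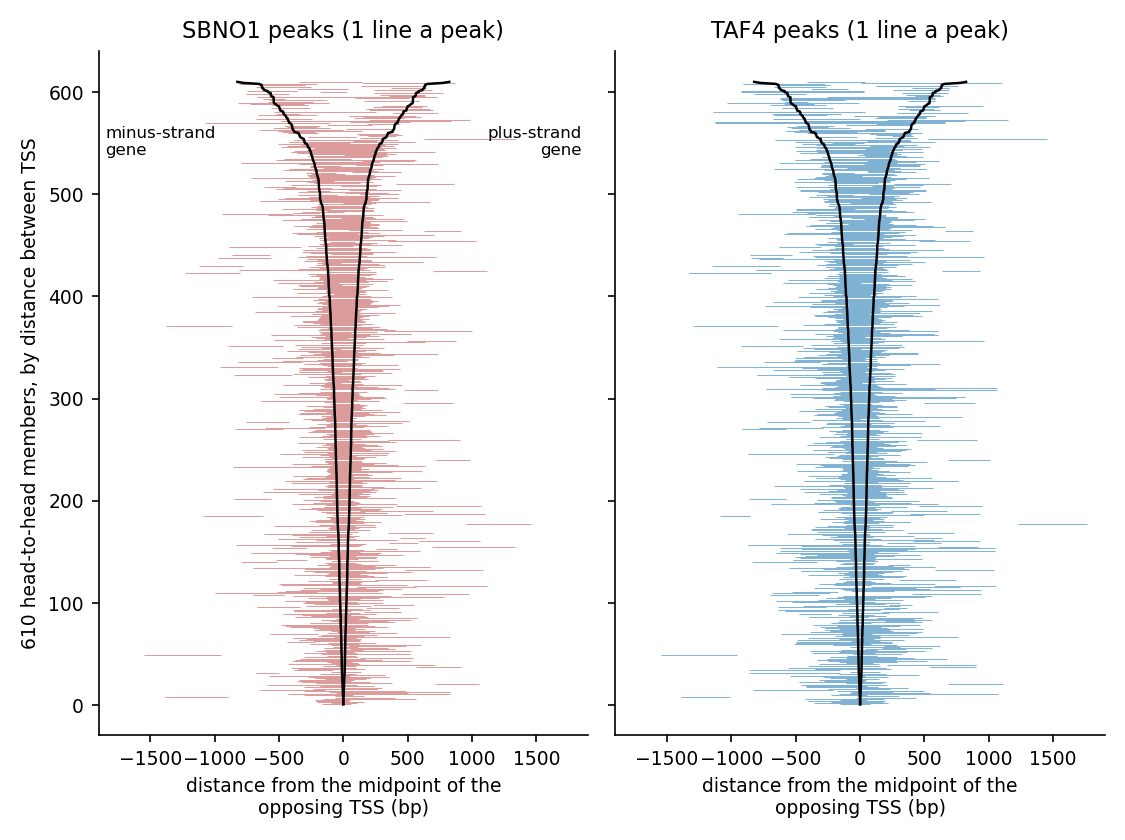
SBNO1 (left) and TAF4 (right) peaks of the 610 head-to-head members, drawn as horizontal lines from peak start to peak end against the distance in bp from the midpoint of the opposing TSS. Members are stacked by the distance between their TSS, and the black curves mark the TSS of the minus-strand and the plus-strand gene. In both libraries the lines spread to either side of the midpoint, with the SBNO1 centre between the TSS in 318 members and the TAF4 centre in 310.

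Median SBNO1 peak width lay between 417 and 454 bp in all 7 classes of distance between the TSS, and coverage of both TSS was lower where the TSS lay far apart. The median SBNO1 width was 423 bp (375 to 445 bp) in the 103 members with TSS 1 to 50 bp apart and 435 bp (369 to 498 bp) in the 71 members with TSS over 500 bp apart. The median TAF4 width ran from 452 bp (393 to 511 bp) at 101 to 150 bp to 537 bp (473 to 582 bp) at 301 to 500 bp, with intervals that overlap. SBNO1 covered both TSS in 83 of the 103 members with TSS 1 to 50 bp apart (80.6%, 71.6 to 87.7%). It covered both in 13 of the 71 with TSS over 500 bp apart (18.3%, 10.1 to 29.3%). The highest share was 88.3% (80.5 to 93.8%), at 101 to 150 bp. In the 71 members with TSS over 500 bp apart, the SBNO1 centre lay between the TSS in 65. The limit of 1 kb to both TSS favours this position, and a peak of median width cannot cover TSS over 500 bp apart.

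At 48 gene pairs there were 2 members. Their centres lay a median of 793.5 bp apart (629.5 to 866.5 bp). In 28 of these pairs (58.3%, 43.2 to 72.4%) 1 member lay on each side of the midpoint, and in 14 (29.2%, 17.0 to 44.1%) a single TAF4 peak overlapped both SBNO1 peaks. The pair CBX5/HNRNPA1, which encodes a heterochromatin protein and an RNA-binding protein of splicing, had both features: SBNO1 peaks with scores of 914 and 1000, whose centres lay 670 bp apart, were overlapped by the same TAF4 peak of 1675 bp. BRCA1/NBR1, which encodes a repair protein and an autophagy receptor, had SBNO1 peaks with scores of 895 and 535 on either side of the midpoint, each overlapped by its own TAF4 peak.

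To see where the members differed from other shared promoter peaks, they were set beside the 3076 shared peaks, chosen in the same way, that lay no more than 1 kb from a protein-coding TSS but had no opposing pair. For SBNO1 widths and scores the intervals of the differences included 0, while TAF4 peaks were wider in the members. The SBNO1 median width was 431.5 bp (421 to 446 bp), with an interquartile range of 329 to 562.5 bp, against 423 bp (416 to 431 bp), a difference of 8.5 bp with an interval of −10 to 30 bp. The score is the value the authors deposited for each peak, a whole number with a ceiling of 1000 and no stated scaling. It was used only within a list, to rank peaks and to compare groups of them. The median SBNO1 score was 868 in the members and 862 in the others, a difference of 6 with an interval of −33 to 44. TAF4 peaks had a median width of 489 bp (470 to 516 bp) against 450 bp (440 to 459 bp), a difference of 39 bp with an interval of 11 to 76 bp. The TAF4 score was at its ceiling in 420 members (59.7%, 55.9 to 63.3%) and in 55.04% (53.3 to 56.8%) of the others, and the TAF4 peak was wider than the SBNO1 peak in 64.5% (60.8 to 68.0%) and 57.2% (55.4 to 58.9%). These intervals compare peaks within 1 library per protein and say nothing of other cultures.

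Around divergent promoters a larger share of SBNO1 peaks had a TAF4 peak, which is given as a description because the overlap itself chose the members. TAF4 overlapped 704 of 772 IgG-free SBNO1 peaks there (91.2%, 89.0 to 93.1%) and 3076 of 3783 at the other promoters (81.3%, 80.0 to 82.5%). Members covered a TSS more often than the others (94.5% against 82.4%), which the requirement of opposing TSS favours, so the share was also taken over SBNO1 peaks that covered a TSS. It was then 665 of 719 (92.5%, 90.3 to 94.3%) against 2535 of 2939 (86.3%, 85.0 to 87.5%). In the other direction, SBNO1 overlapped 702 of 983 IgG-free TAF4 peaks at divergent promoters (71.4%, 68.5 to 74.2%) and 3071 of 4827 at other promoters (63.6%, 62.2 to 65.0%). IgG peaks overlapped similar shares of both kinds of shared peak: 39 of 743 (5.25%, 3.76 to 7.11%) and 196 of 3272 (5.99%, 5.20 to 6.86%).

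Next, all divergent promoters of the annotation were taken, whether or not they held a peak. Of 1321 head-to-head pairs with TSS up to 1 kb apart, 567 (42.9%, 40.2 to 45.6%) had a shared, IgG-free peak within 1 kb of both TSS. A TAF4 peak alone was found at 206 pairs, an SBNO1 peak alone at 46, and neither at 473. An IgG peak lay at 33 pairs (2.50%, 1.73 to 3.49%). Among the 16579 genes with no TSS of another protein-coding gene within 1 kb, 2601 (15.7%, 15.1 to 16.3%) had a shared peak and 165 (0.995%, 0.850 to 1.16%) an IgG peak. These lone genes were taken at 1 TSS each, and the pairs at the closest opposing TSS of all those annotated. With 1 TSS per gene, 49.9% of 949 pairs had a shared peak. The gap between pairs and lone genes was also seen among promoters rich in CG: where the 200 bp at the pair midpoint or at the lone TSS had at least 55% GC and a ratio of observed to expected CpG of at least 0.6, 448 of 1037 pairs (43.2%, 40.2 to 46.3%) and 2293 of 10521 lone genes (21.8%, 21.0 to 22.6%) had a shared peak. A pair offers more TSS than a lone gene, and the activity of these genes in HuCCT1 cells was not measured, so their part in the gap was not tested.

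**Figure D2:**
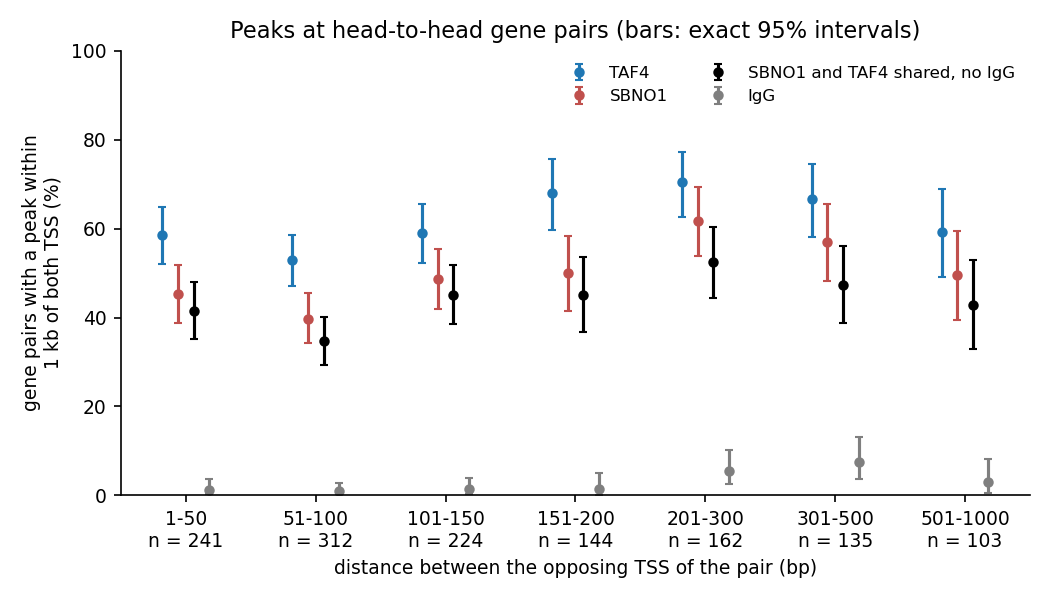
Share of head-to-head gene pairs (%) with a TAF4, SBNO1, shared IgG-free or IgG peak within 1 kb of both TSS, by the distance between the TSS in bp; points are shares, bars exact 95% intervals and n the number of pairs. The share with a shared peak lay between 34.6% and 52.5% in all 7 classes, while IgG stayed at or under 7.41%.

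The share of pairs with a shared peak was lowest at 51 to 100 bp, with 34.6% (29.3 to 40.2%), and highest at 201 to 300 bp, with 52.5% (44.5 to 60.4%). IgG had its higher shares at 201 to 500 bp and not at the widest pairs, with 0.962% (0.199 to 2.78%) at 51 to 100 bp, 5.56% (2.57 to 10.3%) at 201 to 300 bp, 7.41% (3.61 to 13.2%) at 301 to 500 bp and 2.91% (0.605 to 8.28%) at 501 to 1000 bp. Shared peaks overlapping IgG were not counted, and the part of background in the differences between the classes was not tested.

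To see the members at well-known bidirectional promoters, 13 gene pairs from textbooks were looked up. Of these, 7 held a member, 2 had a TAF4 peak without SBNO1, 4 had no peak, and none had an IgG peak. Among all 1321 head-to-head pairs, 42.9% had a shared peak, and 13 pairs are too few to be told apart from that share. In all 7 with a member, the intervals of both proteins covered both TSS. At MCM2, a subunit of the replicative DNA helicase, and TPRA1, whose TSS lie 144 bp apart, an SBNO1 peak of 337 bp (score 663) and a TAF4 peak of 284 bp (score 1000) were listed. The paper had reported SBNO1 and TAF4 enrichment around the MCM2 TSS from its ChIP-seq data, so this pair was known beforehand. Thymidine kinase TK1 and its neighbour AFMID had peaks of 425 bp and 553 bp, with both scores at 1000. The mitochondrial chaperonin HSPD1 and its partner HSPE1, whose 5′ ends overlap, had peaks of 619 bp and 695 bp, with both scores at 1000. At ATM, the kinase of the response to DNA breaks, and NPAT, an activator of histone genes, the TAF4 peak of 1181 bp was wider than the SBNO1 peak of 728 bp. At PAICS and PPAT, enzymes of purine synthesis, the SBNO1 peak of 297 bp overlapped a TAF4 peak of 351 bp. The flap endonuclease FEN1 and TMEM258 shared an SBNO1 peak of 990 bp that was overlapped by 2 TAF4 peaks. The same was seen at MCM4, another helicase subunit, and PRKDC, the kinase of end joining, where the SBNO1 peak of 938 bp had a score of 606.

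**Figure D3:**
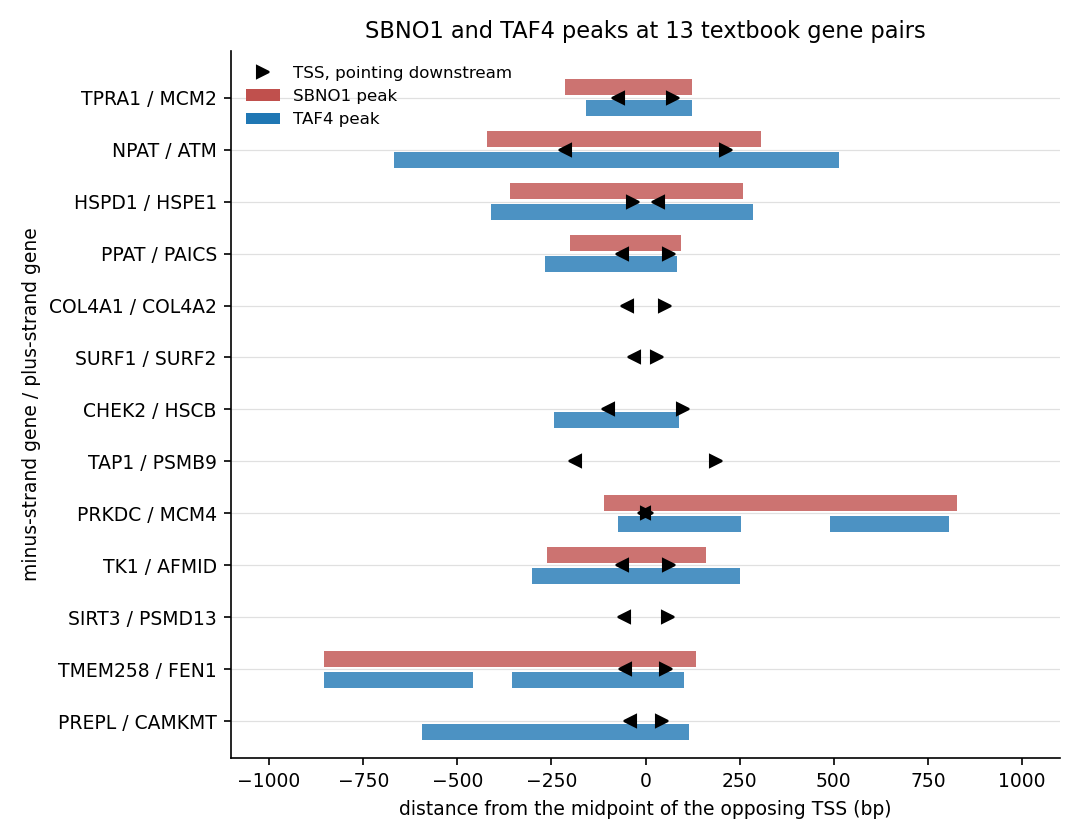
All SBNO1 (red) and TAF4 (blue) peaks within 1 kb of the TSS of 13 textbook gene pairs, against the distance in bp from the midpoint of the opposing TSS; black arrowheads are the TSS, pointing downstream. Of the 13 pairs, 7 held a shared peak, 2 a TAF4 peak without SBNO1 and 4 no peak, beside 42.9% of all head-to-head pairs with a shared peak.

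The pairs with TAF4 only were CHEK2/HSCB and PREPL/CAMKMT. The TAF4 peak at CHEK2, a checkpoint kinase, was 333 bp wide with a score of 1000. That at PREPL had a score of 477. No peak of any library was listed at the collagen pair COL4A1/COL4A2, the antigen-processing pair TAP1/PSMB9, SURF1/SURF2 or SIRT3/PSMD13.

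The members that ranked first by SBNO1 score and then by width came from pairs of mixed function. The SBNO1 score was at its ceiling in 242 members (34.4%, 30.9 to 38.0%) and in 33.0% (31.3 to 34.7%) of the other shared peaks. The first 10 are therefore the widest of these 242, and the score does not order them. The widest was at MKKS, a chaperonin-like protein, and SLX4IP, where the SBNO1 peak of 1398 bp covered TSS 1083 bp apart. It was followed by ALDH6A1/LIN52 (1115 bp), DDX5/CEP95 (981 bp), PPP1R10/MRPS18B (979 bp) and DCAKD/NMT1 (971 bp). The last 5 of the first 10 were LPXN/ZFP91 (968 bp), FIZ1/ZNF524 (944 bp), RPL18/SPHK2 (891 bp), INTS13/FGFR1OP2 (817 bp) and MPC2/DCAF6 (792 bp). All 10 had an SBNO1 score of 1000, and 8 of them a TAF4 score of 1000. The exceptions were FIZ1/ZNF524 (757) and INTS13/FGFR1OP2 (929).

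The genes of the members were then grouped by function. Because a gene can be reached only if another gene starts beside it on the opposite strand, each list is given over all of its genes and over those in a head-to-head pair, beside 6.80% and 44.01% (1128 of 2563; 42.1 to 45.96%) for all protein-coding genes. The intervals of short lists are wide, and a list is described here by its counts alone. A shared promoter peak of any kind, divergent or not, reached 21.2% of all protein-coding genes. It reached 85.2% of cytosolic and 57.7% of mitochondrial ribosomal protein genes, 54.5% of chaperones, 56.5% of clustered histones and 11.8% of zinc finger genes. High or low shares of these lists were therefore not particular to the members.

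Both ribosomal protein lists had shares whose intervals lay above that of all genes in head-to-head pairs. Of 78 mitochondrial ribosomal protein genes, 22 were reached (28.2%, 18.6 to 39.5%), among them 21 of the 28 in a head-to-head pair (75%, 55.1 to 89.3%). The examples with the highest rank were MRPS18B, MRPL32, with peaks of 758 bp for SBNO1 and 683 bp for TAF4, and MRPS27, with 680 bp and 617 bp. Of 88 cytosolic ribosomal protein genes, 19 were reached (21.6%), and 17 of the 21 in a head-to-head pair (81.0%, 58.1 to 94.5%). RPL18 and RPL23A ranked first, and at RPL23A, whose neighbour RAB34 starts 1556 bp away, SBNO1 covered 1 of the TSS. RPL35A had an SBNO1 peak of 519 bp within a TAF4 peak of 1017 bp. Of 37 aminoacyl-tRNA synthetases, which load tRNAs with amino acids, 8 were reached and 7 of the 9 in a head-to-head pair (77.8%, 39.99 to 97.2%, which includes 44.01%), among them YARS1 and the pair HARS1/HARS2, 2 synthetases for histidine that face each other across 37 bp. HARS1 and HARS2 are similar copies, as are the histones below, and the treatment of reads that match several places was not stated.

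Genes of mitochondria and protein folding followed. Of 82 genes of the respiratory chain and ATP synthase, 18 were reached (21.95%, 13.6 to 32.5%), 16 of them among the 28 in a head-to-head pair (57.1%, 37.2 to 75.5%). SDHD, a subunit of succinate dehydrogenase, shared its promoter with TIMM8B, a chaperone of mitochondrial import (604 bp for SBNO1, 513 bp for TAF4). ATP5MK, a small subunit of ATP synthase, had peaks of 534 bp and 393 bp. NDUFB5, of complex I, faced the mitochondrial ribosomal gene MRPL47, so 1 SBNO1 peak of 444 bp lay at genes of both lists. Of 77 chaperones, 21 were reached (27.3%, 17.7 to 38.6%), and 17 of the 21 in a head-to-head pair (81.0%, 58.1 to 94.5%), among them HSPD1, HSPE1, DNAJB11 and CCT6A. With 1 TSS per gene, 16.9% of the chaperones were reached. Of 39 proteasome subunits, 4 were reached (10.3%, 2.87 to 24.2%), 4 of the 10 in a head-to-head pair (40%, 12.2 to 73.8%). The intervals of the respiratory chain and the proteasome in head-to-head pairs included 44.01%, and that of the chaperones lay above it. At PSMC5, an ATPase of the proteasome, and FTSJ3, 2 SBNO1 peaks of 180 bp and 306 bp lay on the FTSJ3 side and were overlapped by 1 TAF4 peak. PSMD10 had a peak of 320 bp with a score of 980.

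**Figure D4:**
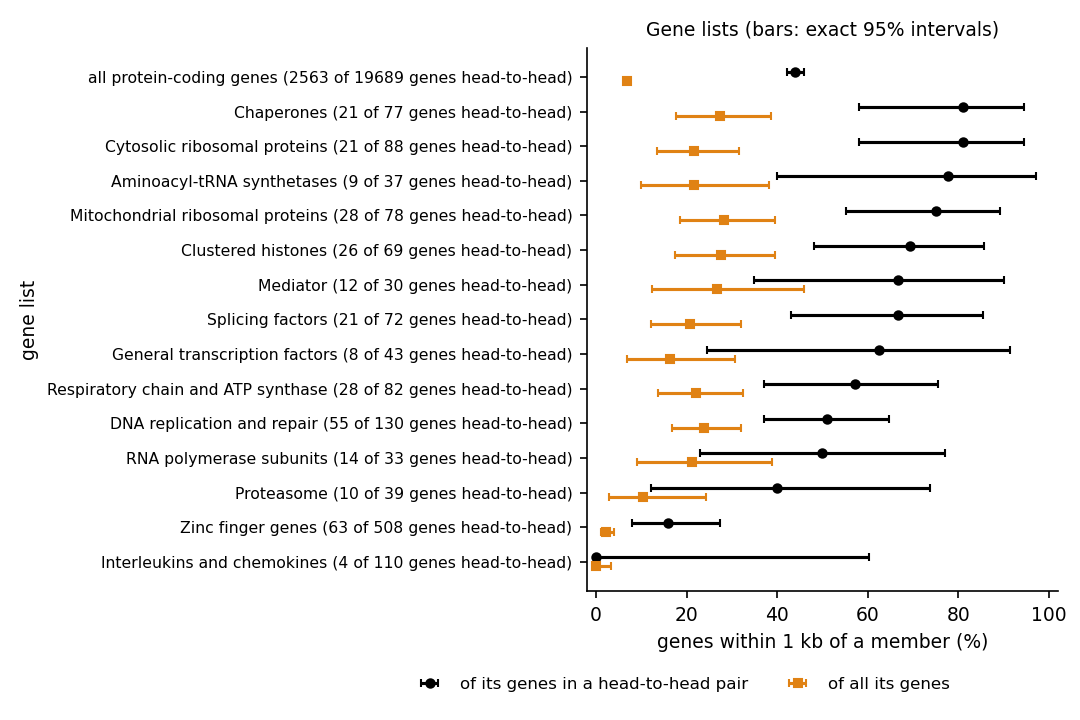
Share of genes (%) within 1 kb of a member for each gene list, over all genes of the list (orange squares) and over those in a head-to-head pair (black circles), with exact 95% intervals as bars. The intervals of the ribosomal protein, chaperone and clustered histone lists lie above the 44.01% of all genes in head-to-head pairs, and that of zinc finger genes (15.9%) lies below it. Genes are counted singly here, and the interval of the clustered histones counted by pair includes the share of all pairs.

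Genes of DNA replication, transcription and splicing likewise gave intervals that included the share of all genes in head-to-head pairs. Of 130 genes of DNA replication and repair, 31 were reached (23.8%, 16.8 to 32.1%), among them 28 of the 55 in a head-to-head pair (50.9%, 37.1 to 64.6%). Besides MCM2, MCM4, FEN1 and TK1, they held ORC4, a subunit of the origin recognition complex, and RAD17, a loader of the checkpoint clamp. RAD17 starts beside TAF9, a subunit of TFIID, and that member had an SBNO1 peak of 592 bp and a TAF4 peak of 878 bp. Of 43 general transcription factor genes 7 were reached, including TAF9, TAF1D and GTF2H3, of 30 Mediator genes 8, and of 33 RNA polymerase subunits 7. With 1 TSS per gene, 16.7% of the Mediator genes were reached instead of 26.7%. TAF1D, a factor of RNA polymerase I, and the Mediator subunit MED17 share a promoter with TSS 10 bp apart, where an SBNO1 peak of 290 bp ended 9 bp before the nearer TSS. MED22 faced RPL7A, POLR1C faced YIPF3 and POLR2B, the second-largest subunit of RNA polymerase II, faced NOA1 (481 bp, score 959). Of 72 splicing factor genes 15 were reached, 14 of them among the 21 in a head-to-head pair (66.7%, 43.0 to 85.4%), with HNRNPA1 (696 bp), SRSF2 (647 bp) and HNRNPH3 (618 bp) first.

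The clustered histone genes, which are read in S phase, are packed head to head in their clusters. Of 69 such genes 19 were reached (27.5%, 17.5 to 39.6%), and 18 of the 26 in a head-to-head pair (69.2%, 48.2 to 85.7%). The latter interval lay above the 44.01% of all genes in head-to-head pairs, but 1 member can reach 2 of these genes. Counted by pair, 10 of 14 pairs with a clustered histone gene had a shared peak (71.4%, 41.9 to 91.6%). That interval includes the 42.9% of all pairs. Members lay at H2AC7/H2BC7 (353 bp for SBNO1), at H2BC12/H2AC12 (442 bp) and at H2BC4/H2AC6, where a peak of 338 bp lay on the H2BC4 side and a second one on the other side of the midpoint. Of the 508 zinc finger genes with a ZNF symbol, 11 were reached (2.17%, 1.09 to 3.84%), and 10 of the 63 in a head-to-head pair (15.9%, 7.88 to 27.3%). With 1 TSS per gene, 1.38% of the zinc finger genes were reached. ZNF524, ZNF408 and ZNF207 ranked first. No interleukin or chemokine gene of 110 was reached, which allows a share of up to 3.30% by the exact interval, but only 4 of them are in a head-to-head pair, so the rule could hardly reach this list.

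The base sequence at the members was compared next, in windows of 200 bp at the SBNO1 centre. GC content was 62.25% in the median member (61.5 to 63%) and 63.5% (63 to 63.5%) in the other shared promoter peaks, and the ratio of observed to expected CpG was 0.866 (0.847 to 0.882) against 0.825 (0.816 to 0.834). Exact matches on either strand were counted for 13 motifs: CCAAT for NFY, CCGGAA for ETS factors, GGGCGG for KLF and SP factors, GCGCATGC for NRF1, TATAAA for the TATA box, TGACTCA or TGAGTCA for AP-1, TGACGTCA for CRE factors, CACGTG for the E-box, AAGATGG for YY1, TCTCGCGA for ZBTB33, ACTACAA for ZNF143, GCGGGAAA for E2F and GGGGAGGG for ZNF148 and ZNF281. A match is a description of the letters and not a measured binding site.

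The ETS letters were more frequent in the members. They were found in 240 of 704 members (34.1%, 30.6 to 37.7%) and in 24.8% (23.3 to 26.3%) of the other shared peaks. Of 19688 windows at protein-coding TSS, 17.8% held them. These windows are called all TSS below, although they did not cover every annotated TSS of each gene. The gap to the other shared peaks was 9.32 percentage points, and was 7.61 points among peaks that covered a TSS and 8.61 points after weighting the others to the GC content of the members. Divergent promoters as such also held these letters often: they were found at the midpoint of 34.6% (30.8 to 38.5%) of head-to-head members and of 28.8% (24.8 to 33.1%) of 472 head-to-head pairs without a peak of any library. Those intervals overlap.

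The AP-1 letters went the other way. They were found in 18 members (2.56%, 1.52 to 4.01%), against 6.66% (5.81 to 7.60%) of the other shared peaks and 2.11% of all TSS. Among peaks that covered a TSS, the shares were 1.65% (0.829 to 2.94%) and 4.34% (3.58 to 5.21%). At the midpoint, they were low in head-to-head members (2.30%, 1.26 to 3.82%) and in pairs without a peak (1.27%, 0.468 to 2.75%), with intervals that overlap. CCAAT was present in 35.4% (31.8 to 39.03%) of members, near the 33.5% (31.8 to 35.2%) of other shared peaks and above the 25.2% of all TSS. At the midpoint, it was found in 35.1% (31.3 to 39.02%) of head-to-head members and 23.1% (19.4 to 27.2%) of pairs without a peak. GGGCGG was the most frequent, in 58.4% (54.6 to 62.1%) of members and 56.4% (54.6 to 58.1%) of other shared peaks. At the midpoint, it was found in 57.2% (53.2 to 61.2%) of head-to-head members and 66.3% (61.9 to 70.6%) of pairs without a peak, whose median GC content of 68% was higher. GGGGAGGG was found in 7.95% (6.06 to 10.2%) of members, 10.7% (9.59 to 11.8%) of other shared peaks, with intervals that overlap, and 12.04% of all TSS. At the midpoint, it was found in 7.38% (5.43 to 9.75%) of head-to-head members and 16.3% (13.1 to 19.96%) of pairs without a peak. TATAAA was rare in members and in other shared peaks, at 3.69% and 3.80%. At least 1 of the NFY, ETS and KLF or SP motifs was present in 82.1% (79.1 to 84.9%) of members, 77.4% (75.9 to 78.9%) of other shared peaks and 72.3% of all TSS.

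**Figure D5:**
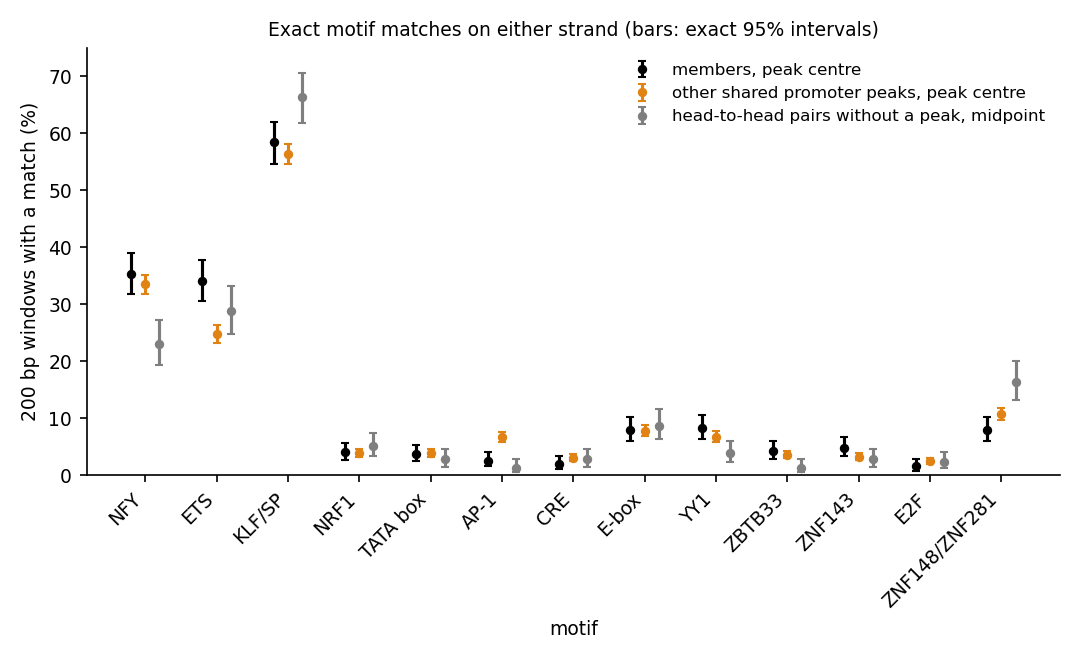
Share of 200 bp windows (%) with an exact match to each of 13 motifs on either strand, in the members, in the other shared promoter peaks and at the midpoint of head-to-head pairs without a peak; bars are exact 95% intervals. The ETS letters stand higher in the members (34.1%) than in the other shared peaks (24.8%), and the AP-1 letters lower (2.56% against 6.66%).

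Annotated starts of noncoding RNA were counted as well. A TSS of a long noncoding RNA on the strand opposite to a gene in reach lay within 1 kb of 27.6% (25.99 to 29.2%) of the other shared peaks. In the members the share was 5.40% (3.85 to 7.33%), where genes lie on both strands and any such TSS counts. The other peaks were chosen for lacking an opposing protein-coding gene, so the rule itself favours this difference. Part of the promoters counted here as not divergent thus have an annotated noncoding start on the other strand.

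The 1 kb limit of the rule had peaks close to it on either side, which was not so for the overlap of 1 bp. The members nearest to the 1 kb limit were ACTR1A/SUFU and NDUFA11/VMAC, where the more distant TSS of the pair lay 1000 bp and 998 bp from the peak edge. Just outside lay the shared peaks at UBALD1/MGRN1, at 1022 bp, and at ENSG00000285458/AFF1, at 1057 bp, with SBNO1 widths of 541 bp and 500 bp. The smallest overlap of a member with its TAF4 peak was 108 bp. The 68 IgG-free SBNO1 peaks at divergent promoters without TAF4 lay at least 94 bp and a median of 34811 bp from a TAF4 peak. They had a median width of 347.5 bp (296 to 406 bp) and were at the score ceiling in 14 cases (20.6%).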

How the data were processed

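ChIP-seq libraries of HuCCT1 cells, 1 each for SBNO1, TAF4 and IgG, were used. According to the methods, precipitates of at least 3 biological replicates were pooled per antibody, and bowtie2 aligned the trimmed single-end reads to GRCh38 for peak calling with normR, while the submitters' processing notes name Bowtie2 2.5.4 and Genrich 0.6.1. Which caller made the lists, its threshold, the use of IgG as control and the handling of duplicates are not given in the sources used here. The paper reports fewer genes with SBNO1 bound within 1 kb of the TSS than the members alone reach. The lists used here therefore cannot be taken as the peak set behind its counts. The authors deposited each peak's coordinates without a summit and a score capped at 1000.

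The members, gene lists and motifs were chosen with earlier results of these data known. TSS were 78567 sites of 19689 genes (GENCODE 44, protein-coding transcripts). No peak was filtered, and each member was paired with the TAF4 peak of largest overlap. Named members were the textbook pairs, the first 10 by SBNO1 score, width and position, up to 3 per gene list, the 3 with most genes in reach and those beside the 1 kb limit, and BRCA1/NBR1 was added after its values were seen. Sequences between TSS 40 to 250 bp apart were read from GRCh38 without annotated UTR and coding bases. Bounds of a difference are the outer bounds of both medians. Python 3.11.15, numpy 2.4.6, scipy 1.17.1 and pysam 0.24.0 were used, and the selection was tested on simulated peaks. Alternatives covered reach, overlap, score, IgG, TSS choice and window size. Those on head-to-head order, histone genes, single chromosomes, GC content, CG-rich windows and, for motifs and TAF4 overlap, peaks covering a TSS were added after the data were seen. A textbook pair and a gene that the naming rule would name are not reported here.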

Additional observations from a re-analysis of the deposited data

How the results depend on the processing

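No paired analysis was possible because there was 1 library per antibody. Of 169 alternative values, 115 stayed within the interval of the value reported, 6 numbers of members (479 to 743) stayed within 1.5 times the 704 reported and 48 moved beyond these limits. The difference in motif share between members and other shared peaks changed sign for 4 motifs, whose intervals overlapped between the groups. Among peaks covering a TSS it went from 2.01 to −1.22 percentage points for KLF and SP and from 0.14 to −0.16 for NRF1 (−0.045 with the GC weighting), and in windows of 100 bp from −2.71 to 0.018 for ZNF148 and ZNF281 and from −0.11 to 0.39 for the TATA box. The number of members fell to 271 when both scores had to reach the median of their list and to 177 when both had to be at the ceiling. The genes reached made up 5.17% of all genes with 1 TSS per gene and 6.12% with a reach of 500 bp. The share of head-to-head pairs with a shared peak was 49.9% with 1 TSS per gene and 32.2% when the peak had to cover both TSS. SBNO1 centres lay between the TSS in 62.7% of members whose TSS were 100 to 500 bp apart. The ETS letters were found in 20.3% of members in windows of 100 bp and in 51.0% in windows of 400 bp, since a longer window holds more letters. The lists give no depth, summit or signal, so peaks missed in 1 library cannot be told from peaks that were absent.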

Other observations

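Members were unevenly spread over the chromosomes. A shared peak lay at 33 of 53 head-to-head pairs on chromosome 5 (62.3%, 47.9 to 75.2%) and at 9 of 75 on chromosome 16 (12%, 5.64 to 21.6%), against 42.9% of all pairs. Lone genes followed the same order, with 25.6% (22.5 to 28.9%) on chromosome 5 and 3.86% (2.54 to 5.61%) on chromosome 16, beside 15.7% of all lone genes. On chromosome 18, 2 of 11 pairs and 2.55% of lone genes had a shared peak. Chromosome 6 also has 75 such pairs, of which 34 had a shared peak. The number of copies of each chromosome in these cells was not measured here, and its part in these shares was not tested.

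SBNO1 scores stepped down at a distance of 200 bp between the TSS, a split chosen after the scores were seen. The medians of the classes up to 200 bp were 875, 931, 929 and 946, with the lowest at 1 to 50 bp, and those of the wider classes 762, 783 and 810, with the highest over 500 bp. The median was 915 (875 to 967) in the 385 head-to-head members with TSS up to 200 bp apart and 782 (748 to 845) in the 225 with TSS further apart, and 39.7% (34.8 to 44.8%) and 26.2% (20.6 to 32.5%) were at the ceiling. The median SBNO1 widths were 429 bp and 435 bp. TAF4 was at its ceiling in 62.6% (57.6 to 67.4%) and 58.2% (51.5 to 64.7%), with intervals that overlap.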
